A study of Mus musculus with 32 samples.

Results

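CDK inhibitors and the retinoblastoma family are the brake on the step from G1 into S phase of the cell cycle. The 8 genes described here are the Cip/Kip inhibitors Cdkn1a (p21) and Cdkn1b (p27), the INK4 inhibitors Cdkn2a (p16Ink4a and p19Arf), Cdkn2c (p18) and Cdkn2d (p19Ink4d), and the pocket proteins Rb1, Rbl1 (p107) and Rbl2 (p130). They were chosen by name. Every Ikaros, CHD4 and H3K27ac peak within 50 kb of a transcription start site (TSS) of a protein-coding transcript of these genes was taken, on mm10. Peaks of a target that shared at least 1 bp were merged into regions over the 8 lists of that target. This gave 51 of 23856 Ikaros regions, 36 of 15358 CHD4 regions and 63 of 39309 H3K27ac regions.

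Chromatin of the mouse pre-B line B3 was immunoprecipitated and sequenced (ChIP-seq). All cells, controls included, carried a retrovirus for Ikaros (IKZF1) with an HA tag and the ERt2 domain, a domain meant to keep it out of the nucleus until the ligand 4-hydroxytamoxifen (4-OHT) is given. The 0 h cells had no 4-OHT, and the others had 500 nM for 30 min, 1 h or 2 h. Anti-HA beads were therefore aimed at the added Ikaros alone. Antibodies were aimed at CHD4, the remodelling ATPase of the NuRD complex, and at H3K27ac, a mark of active promoters and enhancers. Each target had 2 replicates per time, which is 24 peak lists. The labels do not say whether replicates were separate cultures, so each p-value measures the spread between these samples, which may be technical.

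Cyclin-dependent kinases phosphorylate the pocket proteins and so release E2F factors, which switch on the genes of S phase. Cip/Kip proteins bind cyclin and kinase together, and they act mainly on CDK2 complexes. INK4 proteins bind CDK4 and CDK6 and keep D-type cyclins off them. In B cell precursors the division of large pre-B cells ends when pre-B cell receptor signals give way to differentiation, and p27 is known for its part in that exit. p21 is a target of p53, and p19Arf stabilises p53.

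The lists give fold enrichment over the local background (a ratio, without unit) and no read counts. The background coverage that MACS2 worked with, recovered from fold and p, ran from 1.98 to 3.4 fragments per base for Ikaros and from 2.69 to 3.75 for H3K27ac, and is unknown for CHD4. In 2 Ikaros and 7 H3K27ac libraries the recovered pileups were not whole numbers, as MACS2 gives when it scales a library down to its control, so their own coverage was higher than these values. The 2 Ikaros libraries were both replicates of 0 h, so the scaling and the time cannot be told apart in any Ikaros contrast. Lists held 5373 to 14874 Ikaros peaks, 2488 to 9593 CHD4 peaks and 21468 to 33664 H3K27ac peaks. The anti-HA lists without 4-OHT already held 7822 and 9527 peaks, and what these peaks represent was not tested. A region without a peak in a list was under the threshold of that library and was not shown to be unbound. As a check of the cell type, all 9 pre-B genes examined had an H3K27ac peak within 1 kb of a TSS. Rag1 was called in 7 lists and the other 8 in all 8 lists. The 8 T cell, myeloid and erythroid genes had none in any list.

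DNA under the Ikaros summits is shown first, because the regions differ in it. The 5 windows below are 101 bases of the plus strand of GRCm38 (mm10) from RefSeq, centred on the summit of the strongest peak of the region, with each GGAA, or TTCC on the other strand, in capitals. GGAA is the core of the word that Ikaros zinc fingers bind. The regions shown are a region of Cdkn2a, of Cdkn2d and of Cdkn1b that no other region of that gene exceeded in the number of lists, and the 2 regions of Cdkn1a whose level passed the test.
Cdkn2a, 3.0 kb upstream: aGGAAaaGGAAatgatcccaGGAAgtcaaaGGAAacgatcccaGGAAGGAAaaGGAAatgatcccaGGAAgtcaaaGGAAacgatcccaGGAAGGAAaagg
Cdkn1a, 34.1 kb upstream: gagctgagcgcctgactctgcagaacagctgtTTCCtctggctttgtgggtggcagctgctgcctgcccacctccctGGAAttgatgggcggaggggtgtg
Cdkn1a, 28.2 kb upstream: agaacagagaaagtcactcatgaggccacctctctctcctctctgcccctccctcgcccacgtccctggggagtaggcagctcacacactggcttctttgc
Cdkn2d, 3.0 kb downstream: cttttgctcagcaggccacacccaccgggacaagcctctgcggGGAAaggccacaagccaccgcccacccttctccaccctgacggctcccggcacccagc
Cdkn1b, 7.9 kb downstream: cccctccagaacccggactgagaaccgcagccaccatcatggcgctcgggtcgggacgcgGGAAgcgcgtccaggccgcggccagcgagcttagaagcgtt

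The Cdkn2a window (chr4:89285162-89285262) held 11 GGAA words, and it matched itself at 100% of its bases when shifted by 46 bases, so the window is a tandem repeat. Of all 23856 Ikaros regions, 11 held as many words or more at the summit, and the median was 1. The whole region of 1246 bp matched itself at 59.3% at best, at a shift of 23 bases. It held 78 words, or 6.26 per 100 bases, against 1.04 and 1.69 in the 2 Cdkn1a regions, 1.40 in the Cdkn2d region and 1.11 in the Cdkn1b region. The lists do not say how reads from the copies of the repeat were told apart. The Cdkn1a windows (chr17:29056837-29056937 and chr17:29062721-29062821) held 2 GGAA words and 0 GGAA words. The authors also counted GGGA, or TCCC on the other strand, as an Ikaros motif, and that word was not counted here. The window with 0 GGAA words does hold GGGA and TCCC. The Cdkn2d window (chr9:21288103-21288203) and the Cdkn1b window (chr6:134928349-134928449) held 1 each, both times as the longer word GGGAA.

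Over all 51 member regions, 76.5% held a GGAA word in the summit window, beside 80.6% of all Ikaros regions. GGGAA on either strand, which contains GGAA, was in 31.4% of the member windows and in 39.5% of all. RefSeq promoters (300 bases around a start) were given for 7 of the 8 genes, with 10 starts. All 10 held GGAA, as did 96.0% of all 32851 promoters, and 7 of 10 held GGGAA, beside 62.7%. These are matches of letters, counted without a model of binding.

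**Figure D1:**
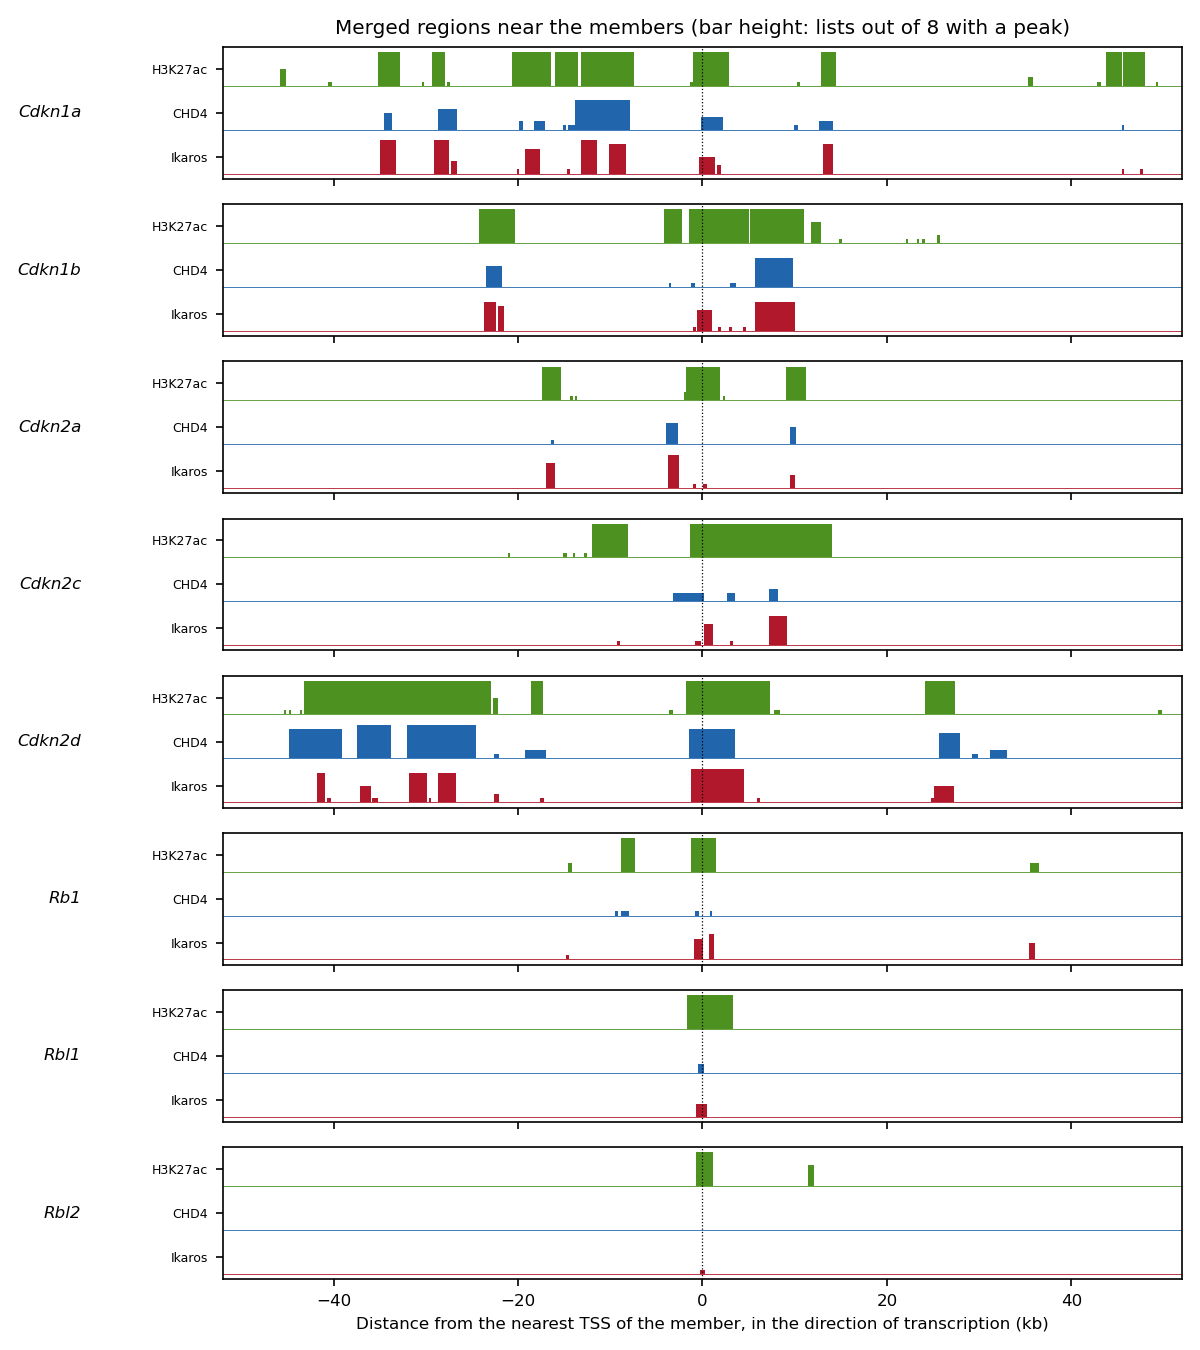
Merged Ikaros, CHD4 and H3K27ac regions of the 8 genes, by distance from the nearest TSS of the gene in kb (x axis), with bar height giving the number of lists out of 8 that held a peak. Cdkn1a and Cdkn2d had 13 and 14 Ikaros regions, and Rbl1 and Rbl2 had 1 each.

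Ikaros regions were unevenly spread over the family. Cdkn2d had 14 and Cdkn1a 13, Cdkn1b had 8, Cdkn2a and Cdkn2c 5 each, Rb1 4, and Rbl1 and Rbl2 1 each. The median of the 8 genes was 5 regions, beside 2 over 21829 protein-coding genes and 3 over the 8995 genes with an H3K27ac promoter peak in all 8 lists. CHD4 regions ranged from 0 at Rbl2 to 11 at Cdkn1a, with a median of 3.5 beside 2 over the acetylated genes. H3K27ac regions ranged from 1 at Rbl1 to 20 at Cdkn1a, with a median of 7.5 beside 5. Of the 51 Ikaros regions, 30 lay nearer to the TSS of the member than to any other protein-coding TSS, and 21 lay nearer to a neighbour.

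Most member Ikaros regions overlapped H3K27ac and CHD4 regions, while 34 of the 63 H3K27ac regions overlapped no Ikaros region. Of the 51 Ikaros regions 49 (96.1%) overlapped an H3K27ac region, against 87.4% of all Ikaros regions, and 38 (74.5%) overlapped a CHD4 region, against 54.6%. Of the 63 H3K27ac regions 29 (46.0%) overlapped an Ikaros region, against 38.8%. The exceptions without H3K27ac were the Cdkn2a region with the repeat and a region 27.1 kb upstream of Cdkn1a. By the position of the summit, 21 Ikaros regions were intergenic, 19 intronic, 7 in a UTR, 3 in coding sequence and 1 in another exon.

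More regions were called at the later times. The number of member Ikaros regions in both replicates was 11 at 0 h and again 11 at 30 min, then 21 after 1 h and 24 after 2 h. Per list there were 20 and 19 Ikaros peaks without 4-OHT, 24 and 18 after 30 min, 30 and 33 after 1 h, and 43 and 39 after 2 h. The lists grew as well. The members' share of the Ikaros list was 0.256% and 0.199% at 0 h, 0.261% and 0.335% after 30 min, 0.241% and 0.222% after 1 h, and 0.302% and 0.275% after 2 h. The 1 h shares lay within the 0 h range, and the highest share was in the list with the fewest peaks. CHD4 peaks numbered 7 and 14, 12 and 18, 17 and 18, and 16 and 26 in order of time, with shares of 0.281% and 0.233%, 0.294% and 0.534%, 0.312% and 0.358%, and 0.290% and 0.271%. H3K27ac peaks numbered from 39 to 63 per list, with shares from 0.156% to 0.215%.

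**Figure D2:**
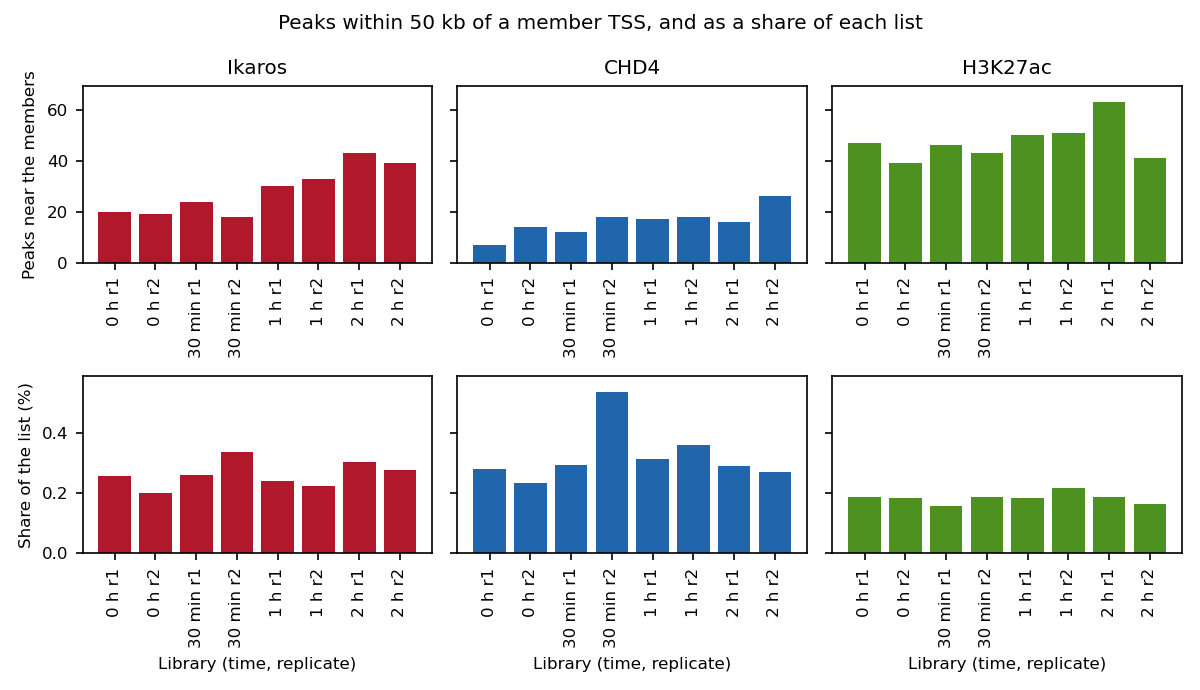
Peaks within 50 kb of a member TSS in each of the 24 lists, as a number (top) and as a percent of all peaks of that list (bottom), by time and replicate (r1, r2). The number of Ikaros peaks ranged from 18 to 43, and the share from 0.199% to 0.335%.

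A region was counted as gained when both 2 h lists and neither 0 h list held it, and as lost when the reverse held. Near the members 3 of 51 Ikaros regions were gained, beside 12.0% of all Ikaros regions, and 1 was lost, beside 3.59%. For CHD4 2 of 36 were gained, beside 5.30%, and 0 were lost, beside 1.45%. For H3K27ac 2 of 63 were gained, beside 3.73%, and 0 were lost, beside 2.78%. With 2 libraries against 2 these counts have no test. The order of the Ikaros shares turned with list size. As deposited, 5.88% of member regions were gained, under the share of all regions. In lists cut to equal size 5 of 30 (16.7%) were gained, above the 7.63% of all 12653 regions.

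Levels were tested where all 8 lists of a target held a peak, which leaves out every region that appeared or vanished. The log2 fold of the strongest peak was centred on the median of its library, and each time was set against 0 h by limma with Benjamini-Hochberg adjustment over all regions tested. The 3 contrasts share the 0 h libraries. For Ikaros, 6 member regions were among the 2305 tested. At 30 min 0 of 6 passed at an adjusted p of 0.05, beside 3.30% of all, at 1 h 2 of 6, both near Cdkn1a and both higher, beside 6.59%, and at 2 h 0 of 6, beside 5.90%. These shares of all regions count both directions, and most regions that passed were lower. Over all 2305 regions, 11 were higher and 65 lower at 30 min, 40 and 112 at 1 h, and 28 and 108 at 2 h. At an unadjusted p under 0.05 the counts were 1, 2 and 1 of 6, beside 17.0%, 22.8% and 20.3% of all regions. A region that did not pass is not shown to be unchanged.

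For CHD4, 2 regions near Cdkn2d were among 723 tested, and 0 passed at 30 min, 1 h or 2 h, beside 0.138%, 0.415% and 0.553% of all. For H3K27ac, 28 were among 14716 tested, and 0 passed at 30 min, beside 0.00680% of all, 0 at 1 h, beside 0.231%, and 0 at 2 h, beside 0.408%. At an unadjusted p under 0.05 there were 0, 1 and 2 of 28 H3K27ac regions, beside 9.47%, 13.7% and 15.9% of all, and 0, 1 and 1 of 2 CHD4 regions, beside 6.36%, 6.09% and 7.33%. The median log2 change of the 28 regions was -0.05 at 30 min, 0.04 at 1 h and -0.01 at 2 h, beside 0.02, 0.06 and 0.05 over all regions.

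Centring set the direction for H3K27ac. Without it the median over all regions was -0.24 at 1 h and -0.41 at 2 h, and that of the 28 member regions was -0.26 and -0.47. Of the 28, 14 were lower at 2 h with centring and 24 without, beside 44.8% and 82.2% of all regions. A change of the mark in all regions and a difference in enrichment between libraries cannot be told apart from fold values. For Ikaros the uncentred median over all regions was -0.16 at 30 min, 0.08 at 1 h and -0.09 at 2 h.

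Cdkn1a encodes p21, the p53-induced inhibitor of cyclin-CDK2. Its gene lies at chr17:29090976-29100727 on the plus strand, and the Ikaros regions formed a row over the intergenic stretch upstream of it. At 34.1 kb upstream (chr17:29056043-29057767), which lies closer to the splicing factor gene Srsf3, the Ikaros fold was 2.61 and 4.36 at 0 h, 6.97 and 3.82 at 30 min, 7.67 and 9.38 at 1 h, and 4.48 and 6.4 at 2 h. At 28.2 kb upstream (chr17:29061843-29063498) the fold was 4.43 and 3.14 at 0 h, 5.69 and 4.64 at 30 min, 10.5 and 7.72 at 1 h, and 7.01 and 4.82 at 2 h. In both regions the 2 libraries of 1 h were above the 2 libraries of 0 h, and the 2 h values lay between them.

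The 1 h mean was 8.53 ± 1.21 (SD, n = 2) against 3.49 ± 1.24 at 0 h in the farther region, a log2 change of 1.24 (SE 0.35, limma adjusted p = 0.0277). The nearer region had 9.11 ± 1.97 against 3.79 ± 0.912, a log2 change of 1.18 (SE 0.36, limma adjusted p = 0.0397). At 2 h the changes were 0.75 and 0.72, with limma adjusted p = 0.215 and 0.244. The summit pileup was 19.2 and 21.6 fragments at 0 h, after scaling, and 26 and 33 at 1 h in the farther region, and 25.6 and 24.9 against 36 and 27 in the nearer one. Summit fragments over the background coverage of the library gave log2 changes of 0.88 and 0.66, with limma adjusted p = 0.0631 and 0.188. Centred on the median of each library as well, they gave 0.67 and 0.45, with limma adjusted p = 0.056 and 0.221. Under quantile normalization the log2 changes were 1.18 and 1.1, close to those above, and neither passed, with limma adjusted p = 0.105 and 0.111. Both were also lost without either 1 h library and without replicate 2 of 0 h. The farther one was lost without replicate 1 of 0 h too, and the nearer one without either 30 min library. The log2 changes then ran from 0.81 to 1.49, with limma adjusted p from 0.0553 to 0.354.

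The third Cdkn1a region in all 8 lists did not pass at any time. At 12.7 kb upstream (chr17:29077824-29079518) the fold was 5.39 and 7.97 at 0 h, 4.39 and 5.03 at 30 min, 6.82 and 4.34 at 1 h, and 5.33 and 5.36 at 2 h, and the change at 1 h was -0.36 (95% interval -1.07 to 0.34, limma adjusted p = 0.594). At 9.5 kb upstream (chr17:29080893-29082710) it was 4.86 and 5.89 at 0 h, 6.22 in replicate 1 alone at 30 min, 6.82 and 7.85 at 1 h, and 3.17 and 5.01 at 2 h. In the former the highest value was at 0 h, and in the latter the 0 h values lay within the range of the later ones.

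The region at 18.0 kb upstream (chr17:29071720-29073399) had 4.53 in replicate 1 alone at 0 h, 3.33 in replicate 2 alone at 30 min, 4.83 and 4.54 at 1 h, and 3.13 and 3.84 at 2 h. Downstream of the gene, 14 kb from the TSS and 2.3 kb before Rab44 (chr17:29110963-29112010), the fold was 3.88 and 2.9 at 0 h, 4.02 in replicate 1 alone at 30 min, 6.25 and 4.44 at 1 h, and 4.32 and 7.36 at 2 h. The lost region, 27.1 kb upstream (chr17:29063740-29064398) and next to the 28.2 kb region, had 5.33 and 4.68 at 0 h and 3.11 in replicate 2 alone at 1 h, with no peak at 30 min or 2 h. It is the only region near the 8 genes that both 0 h lists held and both 2 h lists lacked, for any target.

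At the promoter of Cdkn1a, the Ikaros region in an intron 369 bp past a start (chr17:29093399-29095129) had 4.1 in replicate 1 alone at 0 h, 2.86 in replicate 1 alone at 1 h, and 5.2 and 5.12 at 2 h, with no peak at 30 min. Replicate 1 thus held it at 0 h, 1 h and 2 h, and replicate 2 at 2 h alone. CHD4 at the promoter (chr17:29093613-29095984) had 3.22 in replicate 2 alone at 0 h, 3.71 in replicate 2 alone at 1 h, and 3.18 in replicate 2 alone at 2 h, with no peak at 30 min, always in replicate 2. The merged region lies within 1 kb of a start, and of its peaks that of 2 h alone does. The most often called CHD4 region of Cdkn1a was a merged region of 6.0 kb around 10.9 kb upstream, with 1 or 2 peaks in a list (chr17:29077137-29083095), with 3.61 in replicate 2 alone at 0 h, 3.43 and 3.35 at 30 min, 4.03 and 3.81 at 1 h, and 2.94 and 3.35 at 2 h. It covers the Ikaros regions at 12.7 and 9.5 kb.

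H3K27ac at Cdkn1a had its highest 0 h mean 9.0 kb upstream of the gene. The region at the distal start (chr17:29090361-29092134) had 5.87 and 4.28 at 0 h, 5.47 and 4.29 at 30 min, 5.14 and 3.64 at 1 h, and 4.64 and 3.3 at 2 h, and that farther into the gene (chr17:29092813-29096621) had 8.96 and 8.77 at 0 h, 14.7 and 8.93 at 30 min, 6.6 and 6.16 at 1 h, and 6.42 and 7.86 at 2 h. At 9.0 kb upstream (chr17:29077845-29083562) the fold was 21.6 and 15.7 at 0 h, 32.8 and 15.7 at 30 min, 27.4 and 18.3 at 1 h, and 9.84 and 16.1 at 2 h. The means of the 5 distal upstream regions in all 8 lists ran from 4.5 to 18.6 at 0 h, and 3 of the 5 were under the 8.87 of the promoter region. All 10 regions of Cdkn1a called in 8 lists changed by between -0.27 and 0.58 on the centred log2 scale at 2 h, and 0 of 10 passed. By summit fragments 2 of the upstream regions passed as lower. Of all 28 member regions, 4 passed at 2 h by uncentred fragments, beside 24.4% of all regions. At 1 h 1 passed by uncentred fragments, beside 8.94%, and 2 by centred ones in either direction, beside 16.9%. At 28.6 kb the change at 2 h was -0.83 by uncentred fragments (limma adjusted p = 0.0334) and -0.36 by centred ones (limma adjusted p = 0.342), against -0.27 by the centred fold. At 34.5 kb, over the farther Ikaros region, the change at 1 h was -1.21 by uncentred (limma adjusted p = 0.022) and -0.96 by centred fragments (limma adjusted p = 0.0426), against 0.12 by the centred fold (limma adjusted p = 0.916).

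**Figure D3:**
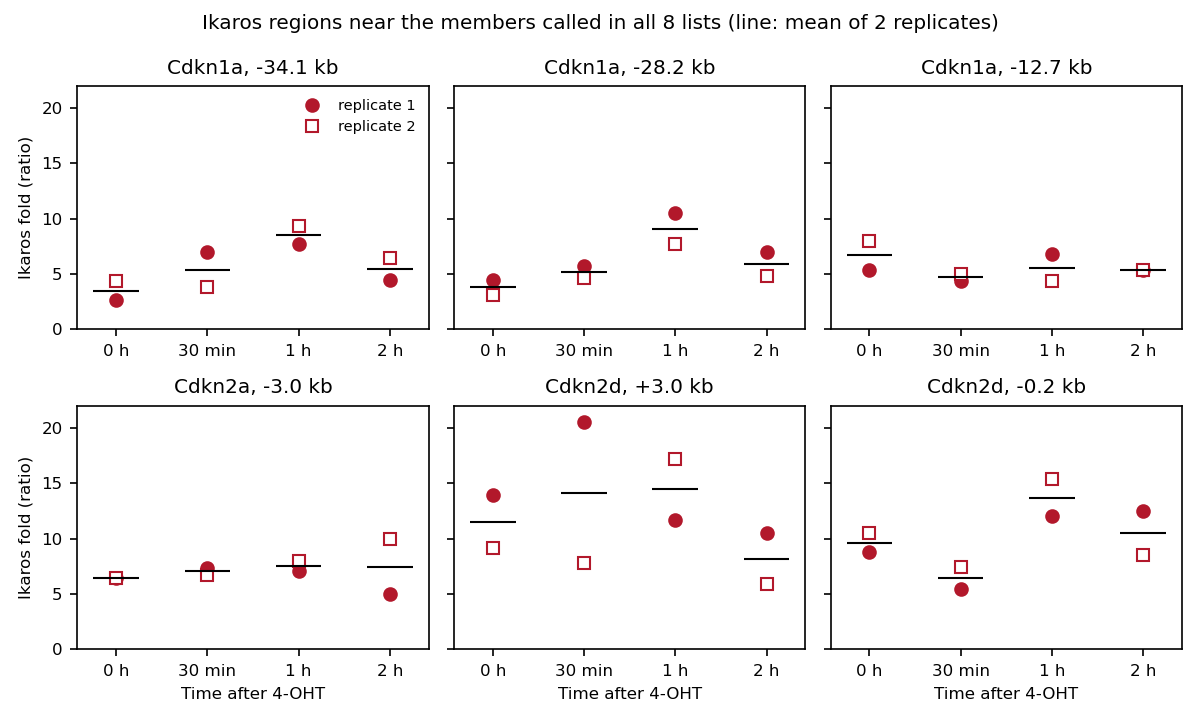
Ikaros fold (y axis, linear) at each time (x axis) in the 6 regions near the members that all 8 lists held; points are the 2 replicates and the line is their mean. The 1 h values lie above both 0 h values at 34.1 and 28.2 kb upstream of Cdkn1a, in the Cdkn2a region with the repeat and at 0.2 kb upstream of Cdkn2d, and of these the Cdkn1a regions passed the test.

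Cdkn1b encodes p27, the inhibitor that holds resting lymphocytes out of S phase. The gene lies at chr6:134920401-134925513 on the plus strand. Its broadest merged Ikaros region was 7.9 kb downstream of the TSS, past the end of the gene (chr6:134926192-134930520). Each of the 7 lists with a peak there held 2 to 3 separate peaks, covering 0.7 to 3.6 kb. The highest fold in it was 3.88 in replicate 1 alone at 0 h, and 8.88 and 6.21 at 30 min. It was 9.38 and 8.26 at 1 h, and 6.23 and 6.83 at 2 h. The summits that gave these values spanned 2501 bp, so the values are not all of the same peak. At 22.7 kb upstream, at the TSS of the orphan receptor gene Gpr19 (chr6:134896765-134898042), the fold was 6.57 in replicate 2 alone at 0 h, 4.32 and 4.36 at 30 min, 7.67 and 8.04 at 1 h, and 4.43 and 5.43 at 2 h. Beside it, in a UTR of Gpr19 (chr6:134898244-134898903), it was 13.1 and 15.2 at 0 h, 6.5 in replicate 1 alone at 30 min, 7.67 and 4.21 at 1 h, and 6.1 in replicate 2 alone at 2 h, so that the highest values of this second region were those at 0 h.

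The Cdkn1b promoter region (chr6:134919968-134921535) had 3.67 in replicate 1 alone at 0 h, 4.26 and 4.95 at 1 h, and 4.22 and 3.8 at 2 h, with no peak at 30 min. A further promoter region 0.8 kb upstream (chr6:134919338-134919728) was in 1 list, at 4.73 in replicate 2 alone at 2 h, with no peak at 0 h, 30 min or 1 h. CHD4 was called in 7 lists at 7.8 kb downstream (chr6:134926263-134930281), with 3.72 in replicate 1 alone at 0 h, 3.46 and 3.29 at 30 min, 4.06 and 3.55 at 1 h, and 3.66 and 3.4 at 2 h. At the promoter (chr6:134919174-134919621) it was in 1 list, at 3.05 in replicate 2 alone at 2 h, with no peak at 0 h, 30 min or 1 h. No list of 30 min held Ikaros at this promoter.

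H3K27ac peaks over the Cdkn1b gene merged across the lists into a region of 6.4 kb (chr6:134919089-134925511). Each list held 2 to 4 separate peaks in it, covering 4.5 to 5.9 kb. The highest fold in it was 16.8 and 17.4 at 0 h, 12.5 and 12.7 at 30 min, 13.5 and 9.21 at 1 h, and 11.6 and 12.3 at 2 h. The 7.8 kb downstream region (chr6:134925713-134931505) had 43.7 and 18.1 at 0 h, 51.9 and 20.1 at 30 min, 37.0 and 19.4 at 1 h, and 27.2 and 20.3 at 2 h, so replicate 1 was above replicate 2 at every time. At the Gpr19 promoter (chr6:134896123-134900117) it was 31.9 and 23.1 at 0 h, 30.1 and 21.3 at 30 min, 30.2 and 12.1 at 1 h, and 15.6 and 13.7 at 2 h. There both 2 h values lay under both 0 h values, 14.6 ± 1.34 against 27.5 ± 6.22 (SD, n = 2). The centred log2 change was -0.43 (95% interval -1.05 to 0.19, limma adjusted p = 0.498).

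Cdkn2a encodes p16Ink4a and, from a separate first exon, p19Arf, and lies at chr4:89274471-89294653 on the minus strand. The Ikaros region with the repeat shown above (chr4:89284714-89285959) is in an intron, 3.0 kb upstream of the start nearer to it. Its Ikaros fold was 6.47 and 6.41 at 0 h, 7.35 and 6.71 at 30 min, 7.1 and 8.0 at 1 h, and 4.94 and 9.92 at 2 h. The mean was 6.44 ± 0.0424 at 0 h and 7.43 ± 3.52 at 2 h (SD, n = 2), a centred log2 change of 0.20 (95% interval -0.50 to 0.91, limma adjusted p = 0.796). Both lists without 4-OHT held it. CHD4 over this region (chr4:89284851-89286159) was gained, with 3.31 in replicate 2 alone at 30 min, 3.56 and 3.51 at 1 h, and 3.04 and 3.05 at 2 h, with no peak at 0 h. No H3K27ac region overlapped it in any list.

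Ikaros at the 2 promoters of Cdkn2a was called once each, in replicate 2 of 1 h, at 4.9 (chr4:89282855-89283164) and at 3.71 (chr4:89294167-89294560). CHD4 was in 0 of 8 lists at these promoters. The H3K27ac region at the p16Ink4a start (chr4:89281253-89283297) had 10.6 and 7.73 at 0 h, 9.68 and 7.86 at 30 min, 9.52 and 5.69 at 1 h, and 7.31 and 5.91 at 2 h, and that at the p19Arf start (chr4:89292780-89296411) had 15.0 and 11.9 at 0 h, 15.8 and 10.9 at 30 min, 12.8 and 8.24 at 1 h, and 9.48 and 8.05 at 2 h. These 2 promoters were acetylated in all 8 lists.

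At 16.1 kb upstream, at the promoter of the INK4 gene Cdkn2b (p15), the Ikaros fold (chr4:89310596-89311659) was 3.32 in replicate 1 alone at 0 h, 2.95 in replicate 1 alone at 30 min, 5.97 and 4.31 at 1 h, and 5.97 and 3.85 at 2 h. The highest values there were in replicate 1 of 1 h and of 2 h.

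Cdkn2c encodes p18, the INK4 inhibitor of CDK6 and CDK4 in lymphocytes, and lies at chr4:109660876-109667189 on the minus strand. Its promoter held an Ikaros region (chr4:109666096-109667028) with 4.97 in replicate 2 alone at 0 h, 3.98 and 3.21 at 1 h, and 5.15 and 5.76 at 2 h, with no peak at 30 min. A neighbouring promoter region (chr4:109667320-109668017) was in 1 list, with a fold of 4.83 in replicate 1 of 2 h. Past the end of the gene, 8.9 kb downstream of the TSS (chr4:109656202-109658163), the fold was 5.1 in replicate 2 alone at 0 h, 2.96 and 3.98 at 30 min, 3.41 and 4.94 at 1 h, and 3.72 and 5.88 at 2 h. No Ikaros region of Cdkn2c was in replicate 1 of 0 h.

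CHD4 at the Cdkn2c promoter (chr4:109667059-109670355) had 3.5 in replicate 1 alone at 1 h and 3.24 in replicate 2 alone at 2 h, with no peak at 0 h or 30 min. Within the Ikaros region 8.9 kb downstream, at 7.8 kb (chr4:109657129-109658115), CHD4 was gained, with 3.18 in replicate 2 alone at 1 h and 3.27 and 3.17 at 2 h, with no peak at 0 h or 30 min. H3K27ac peaks over and past the gene merged across the lists into a region of 15.4 kb (chr4:109653149-109668576), in which each list held 2 to 5 separate peaks covering 11.3 to 14.8 kb. The highest fold in it was 37.5 and 31.1 at 0 h, 42.7 and 34.2 at 30 min, 29.5 and 16.2 at 1 h, and 21.3 and 16.9 at 2 h. It came from the peak at the promoter in 6 lists, and from a peak past the end of the gene in replicate 2 of 1 h and of 2 h, where the promoter peak had 12.5 and 15.1. Both 2 h values were under both 0 h values, 19.1 ± 3.11 against 34.3 ± 4.53 (SD, n = 2). On the centred scale the change was -0.39 (95% interval -0.93 to 0.15, limma adjusted p = 0.484), and without centring it was -0.85 (limma adjusted p = 0.265). By uncentred summit fragments the region passed as lower, at -0.76 (limma adjusted p = 0.0137), where 24.4% of all 14716 regions passed. Centred summit fragments gave -0.29 (limma adjusted p = 0.0867).

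Cdkn2d encodes p19Ink4d and lies at chr9:21288410-21291407 on the minus strand. It was the member with the most Ikaros regions, and it held the highest single fold, 20.5 in replicate 1 of 30 min. At 0 h the region in the UTR of Gpr19 near Cdkn1b had a higher mean, 14.1 ± 1.48 (SD, n = 2), than either promoter region of Cdkn2d. The promoter region (chr9:21290451-21292631) had 8.74 and 10.5 at 0 h, 5.43 and 7.41 at 30 min, 12.0 and 15.4 at 1 h, and 12.5 and 8.5 at 2 h. Among promoters with a peak, its fold ranked between the 66.9th and the 99.8th percentile of the list, with a median of 93.3. The 1 h mean was 13.7 ± 2.4 and the 0 h mean 9.62 ± 1.24 (SD, n = 2), a centred log2 change of 0.41 (95% interval -0.31 to 1.12, limma adjusted p = 0.542).

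A second region (chr9:21286632-21290418) reached within 1 kb of the Cdkn2d starts and peaked 184 bp upstream of Kri1, a ribosome biogenesis gene next to it. This merged region held 1 peak in 1 list and up to 3 separate peaks in the others, covering 1.1 to 2.3 kb. The highest fold in it was 13.9 and 9.15 at 0 h, 20.5 and 7.81 at 30 min, 11.7 and 17.2 at 1 h, and 10.5 and 5.87 at 2 h. The summits that gave these values spanned 514 bp. The replicates were farthest apart at 30 min. CHD4 over both (chr9:21287668-21292647) had 2.75 in replicate 1 alone at 0 h, 4.17 and 3.04 at 30 min, 3.45 and 4.75 at 1 h, and 3.07 and 2.92 at 2 h. Only replicate 2 of 0 h lacked it.

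The H3K27ac region over the Cdkn2d promoter (chr9:21283874-21292925) also covers that of Kri1, and its summit lay 134 bp from the Kri1 TSS and 3334 bp from that of Cdkn2d. It had 25 and 17.4 at 0 h, 38.5 and 24.5 at 30 min, 24.5 and 25.8 at 1 h, and 27.2 and 26.2 at 2 h. The centred log2 change at 2 h was 0.81 (SE 0.26, limma adjusted p = 0.152). Cdkn2c, Cdkn2d and Rbl1 had the strongest H3K27ac promoters of the family, at median percentiles of 94.2, 94.2 and 93.2 over the 8 lists, where the value of Cdkn2d is that of the peak it shares with Kri1.

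Upstream of Cdkn2d, around the choline transporter-like gene Slc44a2, the Ikaros region 41.4 kb from the TSS (chr9:21332370-21333146) had 6.0 and 5.77 at 0 h, 5.01 in replicate 1 alone at 30 min, 3.95 and 6.1 at 1 h, and 5.17 and 4.75 at 2 h. At 36.4 kb (chr9:21327390-21328529) Ikaros was gained, with 6.82 and 6.56 at 1 h and 2.55 and 9.86 at 2 h, with no peak at 0 h or 30 min. The regions at 30.3 kb (chr9:21321251-21323208) and 27.5 kb (chr9:21318166-21320044) had 4.16 in replicate 2 alone at 0 h, 4.69 and 6.45 at 30 min, 3.92 and 5.41 at 1 h, and 6.14 and 4.3 at 2 h in the former, and 5.57 in replicate 1 alone at 0 h, 4.02 and 4.17 at 30 min, 3.88 and 5.65 at 1 h, and 3.99 and 3.68 at 2 h in the latter. The gained region was absent from both 30 min lists as well. A further gained region lay on the other side, 26.8 kb downstream and 972 bp before the autophagy gene Atg4d (chr9:21263866-21266044), with 5.03 in replicate 2 alone at 30 min, 3.72 in replicate 2 alone at 1 h, and 4.89 and 4.08 at 2 h, with no peak at 0 h.

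The same upstream stretch held the 2 member CHD4 regions called in all 8 lists. At 35.6 kb (chr9:21325186-21328893) CHD4 was 3.19 and 2.89 at 0 h, 2.89 and 2.69 at 30 min, 3.98 and 3.66 at 1 h, and 3.17 and 3.7 at 2 h, and at 28.3 kb (chr9:21315999-21323465) it was 3.78 and 3.67 at 0 h, 3.35 and 3.91 at 30 min, 3.72 and 3.59 at 1 h, and 3.1 and 3.58 at 2 h. In the former the 4 values of 1 h and 2 h ranged from 3.17 to 3.98 and those of 0 h and 30 min from 2.69 to 3.19, so the groups overlapped. Its centred log2 change was 0.29 at 1 h (SE 0.12, limma adjusted p = 0.569) and 0.28 at 2 h (SE 0.12, limma adjusted p = 0.556). H3K27ac peaks over the stretch merged across the lists into a region of 20.3 kb (chr9:21314293-21334578), which held 1 peak in replicate 1 of 30 min and 3 to 7 separate peaks in the other lists, covering 14.1 to 19.4 kb. The highest fold in it was 19.1 and 14 at 0 h, 25.9 and 28.1 at 30 min, 41.6 and 20.3 at 1 h, and 15.9 and 27.4 at 2 h. The peak that gave this value was not the same one in every list, and it differed between the replicates of 0 h and of 2 h. The centred log2 change was 1.12 at 1 h (SE 0.32, limma adjusted p = 0.155) and 0.81 at 2 h (SE 0.32, limma adjusted p = 0.234). Without centring it was 0.83 at 1 h and 0.35 at 2 h. With a library left out the centred change ran from 0.84 to 1.4 at 1 h and from 0.4 to 1.23 at 2 h.

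The direction of that region at 2 h turned with the measure. Summit fragments over the background coverage gave log2 changes of 0.23 at 1 h and -0.07 at 2 h, with limma adjusted p = 0.663 and 0.846. After centring on the median of each library they gave 0.48 and 0.40, with limma adjusted p = 0.00736 and 0.0182. The smaller H3K27ac region 18.0 kb upstream of Cdkn2d (chr9:21308667-21309987) likewise had 0.78 at 2 h without centring (limma adjusted p = 0.116) and 1.25 with it (limma adjusted p = 0.00894). The centred measure called many regions, 16.9% of all 14716 at 1 h and 20.1% at 2 h, beside 2 of the 28 member regions (7.14%) at each time. On the fold scale the 18.0 kb region was 3.78 and 2.89 at 0 h, 5.51 and 2.87 at 30 min, 4.03 and 4.43 at 1 h, and 3.25 and 3.79 at 2 h.

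**Figure D4:**
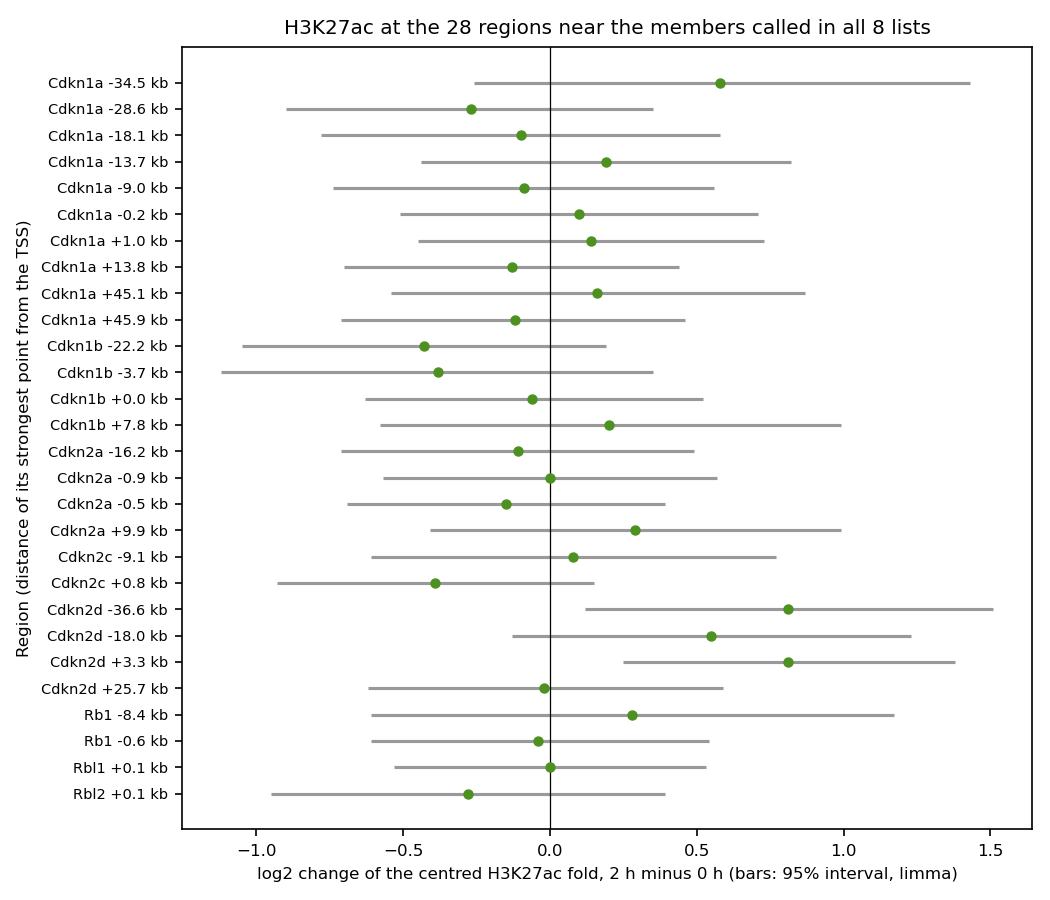
Centred log2 change of H3K27ac fold, 2 h minus 0 h (x axis), with 95% limma intervals, for the 28 regions near the members that all 8 lists held (rows, named by gene and distance from the TSS in kb). The intervals of the Cdkn2d regions at 3.3 kb downstream and 36.6 kb upstream lie above 0, and 0 of 28 regions passed after adjustment.

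Rb1 encodes the retinoblastoma protein, the pocket protein that binds activating E2F factors, and lies at chr14:73183673-73325822 on the minus strand. Ikaros peaks lay on both sides of its TSS. The region at the start of the gene (chr14:73325728-73326787) had 4.93 in replicate 2 alone at 0 h, 3.19 in replicate 1 alone at 30 min, 5.4 in replicate 1 alone at 1 h, and 3.5 and 3.73 at 2 h, and that in the first intron, 950 bp downstream (chr14:73324551-73325131), had 4.56 in replicate 2 alone at 0 h, 2.78 in replicate 1 alone at 30 min, 4.86 and 5.9 at 1 h, and 4.64 and 5.99 at 2 h. Neither was in replicate 1 of 0 h or replicate 2 of 30 min. At 35.7 kb downstream, in an intron (chr14:73289742-73290393), Ikaros was gained, with 4.24 in replicate 2 alone at 30 min, 5.1 in replicate 1 alone at 1 h, and 4.83 and 6.08 at 2 h, with no peak at 0 h.

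An H3K27ac region next to it (chr14:73289286-73290271), which overlapped the Ikaros region, was gained as well, with 3.96 and 2.75 at 2 h, with no peak at 0 h, 30 min or 1 h. CHD4 was not called in the Ikaros region at 35.7 kb in any list. The CHD4 promoter regions of Rb1 were in 1 list each, with 3.55 in replicate 2 alone at 0 h, with no peak at 30 min, 1 h or 2 h upstream (chr14:73326246-73326586) and 3.16 in replicate 2 alone at 1 h, with no peak at 0 h, 30 min or 2 h downstream (chr14:73324738-73325034). H3K27ac at the promoter (chr14:73324322-73327080) was 9.69 and 9.61 at 0 h, 11.8 and 8.44 at 30 min, 8.51 and 8.23 at 1 h, and 6.57 and 7.1 at 2 h, with a centred log2 change of -0.04 at 2 h (95% interval -0.61 to 0.54, limma adjusted p = 0.967).

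Rbl1 encodes p107, a pocket protein of dividing cells that binds the repressive E2F factors, and lies at chr2:157145893-157204534 on the minus strand. It had a single region of each target within 50 kb, all at the promoter. The Ikaros fold (chr2:157204065-157205159) was 3.96 in replicate 1 alone at 30 min, 4.75 in replicate 1 alone at 1 h, and 3.5 in replicate 1 alone at 2 h, with no peak at 0 h, always in replicate 1. CHD4 (chr2:157204310-157205026) had 3.17 in replicate 1 alone at 1 h and 2.97 in replicate 2 alone at 2 h, with no peak at 0 h or 30 min. H3K27ac (chr2:157201216-157206190) had 32.2 and 23.5 at 0 h, 37.2 and 23.9 at 30 min, 33.5 and 21.6 at 1 h, and 18.6 and 21.6 at 2 h. Replicates differed as much as times did, and the centred log2 change of H3K27ac at 2 h was 0.00 (95% interval -0.53 to 0.53, limma adjusted p = 0.996).

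Rbl2 encodes p130, the pocket protein of resting cells, and lies at chr8:91070057-91123844 on the plus strand. Of the 8 genes it alone had no CHD4 region, and with Rbl1 it had the fewest Ikaros regions. Ikaros (chr8:91069948-91070462) was in 1 list, with a fold of 2.94 in replicate 2 of 2 h. CHD4 was in 0 of 8 lists within 50 kb. H3K27ac at the promoter (chr8:91069473-91071330) was 8.89 and 7.71 at 0 h, 6.08 and 7.38 at 30 min, 6.72 and 4.51 at 1 h, and 6.13 and 3.99 at 2 h. Its percentile among called promoters ran from 6.00 to 24.4, with a median of 18.5, the lowest of the 8 genes, and the change at 2 h was -0.28 (95% interval -0.95 to 0.39, limma adjusted p = 0.715).

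**Figure D5:**
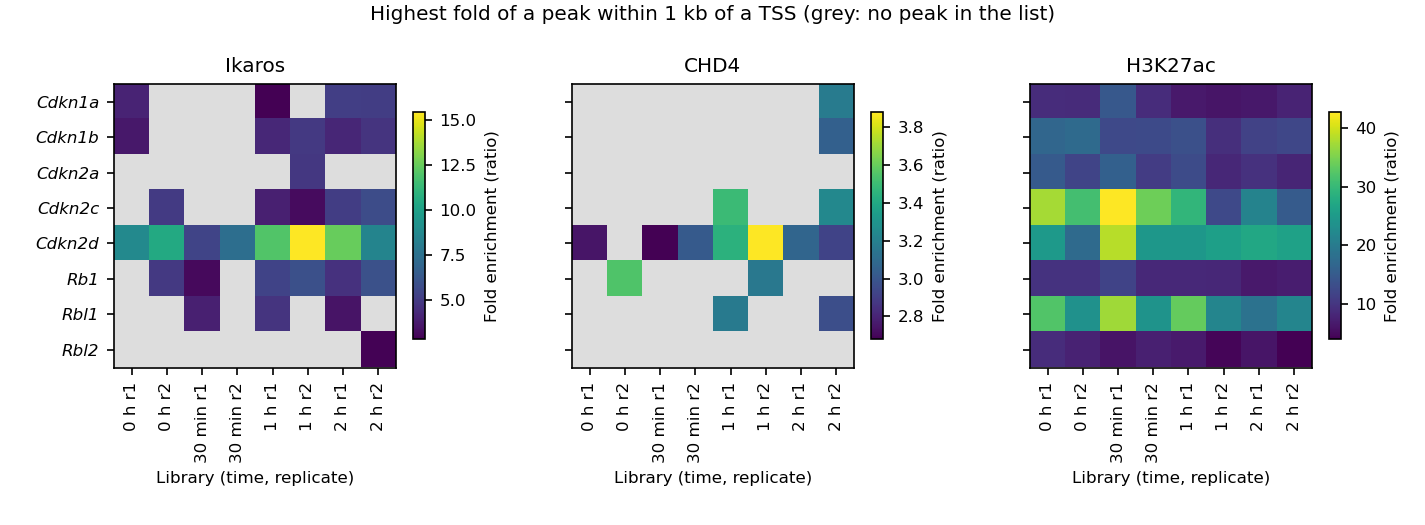
Highest fold (colour, ratio, separate scale per target) of a peak within 1 kb of a TSS for the 8 genes (rows) in the 8 lists of each target (columns, by time and replicate), with grey where the list held no such peak. H3K27ac was called at all 8 genes in every list, and Ikaros was called in all 8 lists at Cdkn2d only among these genes.

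At promoters as a class, all 8 genes had an H3K27ac peak within 1 kb of a TSS in all 8 lists, beside 41.2% of protein-coding genes. Ikaros was called at least once at 8 of 8 promoters, beside 81.6% of genes acetylated in all 8 lists, and in all 8 lists at 1 of 8, beside 11.6%. CHD4 was called at least once at 6 of 8, beside 53.4%. Counting both replicates, Ikaros was at 1 member promoter at 0 h and 1 after 30 min, against 4 after 1 h and 5 after 2 h. Of the 8995 acetylated genes 26.1%, 15.8%, 48.5% and 48.9% had one in that order, so called promoters rose overall as well. CHD4 was at 0, 1, 1 and 1 member promoters and at 4.26%, 5.34%, 10.8% and 12.9% of the acetylated genes. The gene at 30 min was Cdkn2d for both.

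Of 36 other genes of G1 to S control, such as the CDK partners, E2F factors and subunits of the DREAM complex, 12 had an Ikaros promoter peak in both replicates at 0 h and 12 after 30 min, against 20 after 1 h and 22 after 2 h. These shares stand beside those of the acetylated genes given above, which rose too. In the same order CHD4 was at 1, 3, 3 and 7 of the 36, and H3K27ac at 34, 33, 33 and 33. Their promoters held 48 Ikaros, 25 CHD4 and 37 H3K27ac regions. Of these, 6 Ikaros and 35 H3K27ac regions were in all 8 lists, and 0 passed in either direction at 30 min, 1 h or 2 h. Over all regions tested 3.30%, 6.59% and 5.90% passed for Ikaros in that order, and 0.00680%, 0.231% and 0.408% for H3K27ac. With so few regions a count of 0 does not set these genes apart. Trp53 (15.1), Rbbp4 (13.0) and Lin52 (12.1) had the highest single Ikaros folds of the list, beside 15.4 at the Cdkn2d promoter. Cdkn1c and E2f6 had no promoter peak of any target.

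For each member, the protein-coding gene with the most similar promoter record was found by the root mean square difference of log2(1 + highest fold within 1 kb of a TSS) over the 24 libraries, with 0 where no peak was called. Cdkn2a was closest to Fmr1 at 0.0971, Rbl2 to Fam193b at 0.120 and Cdkn1b to Tomm34 at 0.162. Rbl1 was closest to Cenpn and Cmc2, which share a value of 0.230. Rb1 was closest to Ppargc1b at 0.237, Cdkn1a to Zfp850 at 0.28, Cdkn2d to Zcchc7 at 0.442 and Cdkn2c to Ppp1r15b at 0.522. The median difference to all genes ran from 1.71 at Rbl2 to 3.56 at Cdkn2d.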

How the data were processed

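Peak lists of 24 libraries were used, 1 per library: HA-Ikaros, CHD4 and H3K27ac at 0 h, 30 min, 1 h and 2 h of 500 nM 4-OHT, in 2 replicates. The authors aligned paired reads to mm10 with Bowtie2 2.4.2, marked duplicates with Picard 2.23.7 and called peaks with MACS2 2.2.7.1, in broad mode for CHD4. Their methods give this for 0, 1 and 2 h only, and which control each call used is not stated. The 8 input libraries were not analysed here.

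The fold enrichment deposited by the authors is a ratio of pileup to local background, at the summit in narrow lists and averaged over the peak in CHD4 lists. The −log10 p and −log10 q deposited by the authors were used to filter peaks, and the p with the fold to recover summit fragments and background coverage. The display score was not used. No read counts are in the lists, so no count model was run, and the part of depth in which regions were called was not tested.

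Peaks were merged into regions per target, with an overlap of at least 1 bp. Regions in all 8 lists were tested with limma 3.58.1 in R 4.3.3 on the log2 of the highest fold, each library centred on its median, over all regions of the target, with Benjamini-Hochberg adjustment and a threshold of 0.05. The test and the recovery of coverage were tested on simulated data. The alternatives were a replicate block, quantile normalization, no centring, peaks with a −log10 q or a fold of at least 3, windows of 20 and 100 kb, the 5′ end of the gene, lists of equal size, summit fragments over coverage, centred on the median, and each library left out. Summit fragments without centring were added after seeing the data.

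Values are given in every library for regions within 1 kb of a member TSS and for Ikaros regions in both replicates of any time. A few other regions are named for CHD4 and H3K27ac beside them, and were chosen after their values were seen, as was the GGAA word. The members, the list of 36 genes and the markers were chosen with earlier results of these data known.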

Additional observations from a re-analysis of the deposited data

How the results depend on the processing

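Of the 2 Cdkn1a Ikaros regions that passed at 1 h, 0 passed under quantile normalization (0.911% of all regions), 0 by centred summit fragments (22.7% of all), 0 by uncentred ones (19.1%), and 0 to 2 when a library was left out (1.3% to 6.81%). With peaks of −log10 q of at least 3, 1 of 5 passed (7.07%), and the region 34.1 kb upstream could not be tested. Leaving out a library leaves its time with 1 sample, which is assumed to vary like the others. With the replicate block 2 passed (8.2% of all), and without centring 2 passed (3.82%). Of 28 H3K27ac regions 2 passed at 1 h and 2 at 2 h by centred summit fragments, beside 16.9% and 20.1% of all. By uncentred ones, chosen after seeing the data, 1 passed at 1 h and 4 at 2 h, all lower, beside 8.94% and 24.4%. The 4 lay 28.6 kb upstream of Cdkn1a (-0.83), 0.5 kb upstream of Cdkn2a (-0.64), 0.8 kb downstream of Cdkn2c (-0.76) and 25.7 kb downstream of Cdkn2d (-0.65). The region 34.5 kb upstream of Cdkn1a reversed at 1 h, from a log2 change of 0.12 to -0.96 by centred and -1.21 by uncentred fragments, which both passed. Without centring its fold gave -0.17, and with a library left out it ran from -0.37 to 0.62. By uncentred fragments the region 36.6 kb upstream of Cdkn2d reversed at 2 h, to -0.07. The region 25.7 kb downstream of Cdkn2d ran from -0.28 to 0.25 at 2 h with a library left out. The cause was not tested.

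Ikaros regions numbered 33 in a 20 kb and 84 in a 100 kb window, CHD4 regions 61 in the 100 kb window and 9 with −log10 q of at least 3, and H3K27ac regions 38 and 113. Gained Ikaros regions were 0 at 20 kb, 10 at 100 kb (11.9%, beside 12.0% of all) and 5 of 30 in lists of equal size (16.7%, beside 7.63%). With a library left out they were 9 to 14 (17.6% to 27.5%, beside 14.8% to 26.1%). Gained CHD4 regions were 0 with −log10 q of at least 3 and in lists of equal size (1.71% and 2.46% of all), 5 at 100 kb (8.2%, beside 5.30%), and 4 to 12 with a library left out (11.1% to 33.3%, beside 5.94% to 34%). Gained H3K27ac regions were 0 with −log10 q of at least 3, with a fold of at least 3, at 20 kb and in lists of equal size (2.39% to 3.73% of all), and 2 to 19 with a library left out (3.17% to 30.2%, beside 4.19% to 24.8%). Lost regions were 0 for Ikaros at 20 kb, and with a library left out 1 to 2 for Ikaros (beside 4.97% to 8.34% of all), 0 to 2 for CHD4 (1.78% to 10.7%) and 0 to 3 for H3K27ac (3.85% to 6.7%). With fewer lists required, the gained and lost definitions are looser.

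Of all counts of member regions under the alternatives, 149 equalled the main count or lay within 1.5 times of it, and 43 did not. A count of 0 beside a main count of 0 is among the equal ones. No CHD4 region near the members could be tested with −log10 q of at least 3. Same-numbered replicates deviated together little or not at all, with correlations from -0.05 to 0.18. With noisy fold values this does not decide whether the numbers pair the samples. With the replicate block the regions called over all Ikaros regions went from 76, 152 and 136 to 97, 189 and 168 at 30 min, 1 h and 2 h. Those of CHD4 went from 1, 3 and 4 to 3, 5 and 5, and those of H3K27ac fell from 1, 34 and 60 to 0, 20 and 48. No member call changed.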
